A study of Arabidopsis thaliana with 4 samples.

Results

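Roots of the Arabidopsis thaliana mutant wrky47-1 were compared with roots of the wild type after 6 h in solution without aluminium. The comparison uses the wrky47 control array and the wild-type control array, 2 of the 4 arrays of the study, and takes every probe set outside the control probes that names exactly 1 gene code. Of 22746 such probe sets 20550 qualified, and they gave 20341 genes, of which 12602 were measured on both arrays. A signal is the deposited value on a linear scale, and a difference is the log2 signal in wrky47 minus that in wild type, so that 1 stands for 2-fold. A gene was measured if its signal lay above the floor, the 40th percentile of an array, and a gene above the floor on 1 of the arrays only is given as a bound.

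The study has 4 groups of 1 array each: wrky47 control, wild-type control, wrky47 Al and wild-type Al. All plants were 4 weeks old, grew in hydroponic culture and spent 6 h in 0.5 mM CaCl2, to which 25 µM AlCl3 was added for the Al groups. Genotype is the only difference in the sample labels of the arrays compared here. The array names in the column headings also end in unlike numbers, whose meaning is not stated. The labels do not say where the wrky47-1 mutation lies relative to the probes, which accession the wild type is or whether plants were pooled. With 1 array a group there is no spread between replicates, so no difference has a replicate check, no test was made and no p-value is given.

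WRKY47 belongs to the WRKY family of plant transcription factors, which bind W-box elements in the promoters of other genes. Roots take up ions through an epidermis that bears root hairs, and the Casparian strip, a lignin band in the wall of the endodermis, seals the path around the cells of the central cylinder. Wall enzymes and wall proteins loosen and strengthen the primary wall as root cells grow, and published work on this mutant links WRKY47 to the wall genes ELP and XTH17.

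The arrays were of similar brightness. The median log2 signal of the probe sets was 7.15 on the wrky47 control array and 7.20 on the wild-type control array, the floors lay at 79.1 and 81.1, and 12855 and 12847 genes were above them. The 6 probe sets of a bacterial control transcript that is added to the sample, Dap, were brighter on the wrky47 control array by 0.43 to 0.67 on the log2 scale. The mean log2 signal of Dap was 8.23 in wrky47 control, 8.25 in wrky47 Al and 8.27 in wild-type Al, but 7.70 in wild-type control. Wild-type control was thus the array apart from the others. Of the 21 probe sets of the other added transcripts 20 were also brighter in wrky47 control than in wild-type control, with a median of 0.19 and a range of -0.10 to 0.56. The hybridisation controls differed by -0.21 to 0.10. A pair of probe sets for the ends of the GAPDH transcript differed, 3' minus 5', by -0.00 in wrky47 control and 0.16 in wild-type control. A pair for actin differed by 0.93 and 0.80. A second actin pair had log2 signals of 11.79 (3') and 10.01 (5') in wrky47 control, and 11.95 and 10.03 in wild-type control. A second GAPDH pair had 13.13 and 13.15 in wrky47 control, and 13.14 and 13.13 in wild-type control. Where a gene had 2 or more measured probe sets, as 84 genes did, its differences were 0.17 apart in the median and 0.69 at most. None of the genes past 2-fold had a second measured probe set.

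The targeted gene was at background in the mutant. WRKY47 (AT4G01720) had a signal of 27.5 in wrky47 control, below the floor, against 173 in wild-type control, which makes it lower by at least 2.19-fold. On the Al arrays it had 24.1 in wrky47 and 203 in wild type. ELP (AT1G12090), an extensin-like protein of the wall, had 191 in wrky47 control and 731 in wild-type control, a difference of -1.94. It was also the lower in wrky47 on the Al arrays, with 46.4 in wrky47, below the floor, and 276 in wild type. XTH17 (AT1G65310), a xyloglucan endotransglucosylase/hydrolase, which cuts and rejoins the xyloglucan that ties cellulose together, had 63.1 in wrky47 control and 129.8 in wild-type control. Its mutant signal was below the floor, and the bound was at least 1.64-fold lower, which is short of 2-fold. On the Al arrays XTH17 was measured in both genotypes, with 343 in wrky47 and 554 in wild type (-0.69), also short of 2-fold. WRKY47, ELP and XTH17 were thus lower in wrky47 in both solutions, and ELP alone of these was measured on both control arrays.

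Few genes passed 2-fold between the genotypes. Of 12602 genes measured 39 did (0.309%), 13 of them higher (0.103%) and 26 lower (0.206%) in wrky47, with 0 and 4 more as bounds. Higher genes were 33.3% of those past 2-fold as deposited, and 50% after quantile normalization (19 higher and 19 lower), 48.6% after centring (18 higher, 19 lower) and 51.4% with arrays scaled to their 75th percentile (19 higher, 18 lower). With an offset, the 20th percentile of the array, added to each signal before log2, 19 of the 39 were short of 2-fold. These were ADF11, FMO GS-OX3, CBL8, GASA1, SCPL11, SDR5, SKOR, CASP2, CWLP, ARP1, FSD1, SULTR2;1, AT1G23750, AT3G10720, AT3G24100, AT3G28550, AT3G58670, AT4G11210 and AT5G22860. The median difference of all measured genes was -0.05, the middle 98% lay between -0.71 and 0.57, and 60.1% were below 0. At 1.5-fold, a log2 difference of 0.58, 116 genes were higher (0.92%) and 236 lower (1.87%). The counts of list and family members below are to be read beside these shares. The spread narrowed with signal, with an SD across genes of 0.27 among the 2521 dimmest and 0.19 among the 2521 brightest.

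**Figure D1:**
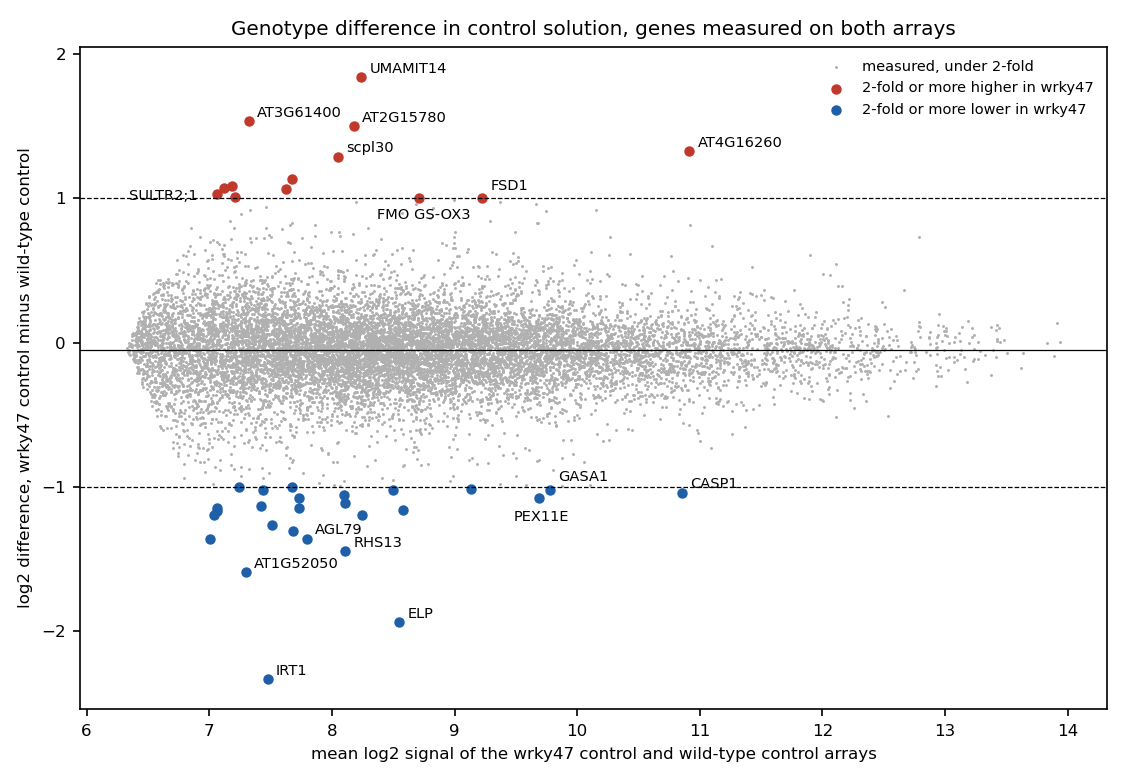
Mean log2 signal of the wrky47 control and wild-type control arrays (horizontal axis) against the log2 difference, wrky47 control minus wild-type control (vertical axis), for the 12602 genes measured on both arrays. Red points are the 13 genes at least 2-fold higher in wrky47 and blue points the 26 at least 2-fold lower, dashed lines mark 2-fold, and the solid line is the median of -0.05. IRT1 and ELP lie lowest and UMAMIT14 highest, and points past 2-fold thin out toward high signal. Among the 2521 dimmest genes 5 were higher and 6 lower, and among the next 2520 the counts were 3 and 12. Among the 2521 brightest genes 1 was higher and 1 lower.

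IRT1 (AT4G19690), the main importer of ferrous iron into root epidermis, had the lowest difference of all measured genes. Its signal was 79.3 in wrky47 control and 399.9 in wild-type control, a difference of -2.33 or 5.04-fold lower. The mutant value lay just above the floor of 79.1. On the Al arrays IRT1 was below the floor in both genotypes, with 37.7 in wrky47 and 52.5 in wild type.

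IRT1 differed from the other genes of iron uptake. FIT, the basic helix-loop-helix factor that activates IRT1, had 189.7 in wrky47 control and 150.4 in wild-type control, a difference of 0.33. Of the 10 measured genes in the list of FIT-dependent iron uptake IRT1 was the only one past 2-fold, 7 were below 0 and the median was -0.17. Over all measured genes 60.1% were below 0 and the median was -0.05. MTP3, which moves zinc into the vacuole, was at -0.40, the metal transporter NRAMP1 at -0.20, and BGLU42 and KFBP at -0.30 and -0.32. The genes of iron status and distribution, 10 measured, had a median of -0.13 with none past 2-fold. Among them the iron-sensing ligase BTS was at -0.20, the regulator PYE at -0.20 and the nicotianamine synthase NAS1 at -0.21. FRD3, which loads citrate into the xylem and so carries iron to the shoot, was the highest at 0.59, with signals of 485 in wrky47 control and 322 in wild-type control. The vacuolar iron transporter-like genes VTL2 and VTL1 were at 0.54 and 0.48, while the ferritins, which store iron, lay at -0.06 (FER1), 0.03 (FER3) and -0.28 (FER4).

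Genes that respond to copper and zinc lay partly above 0. FSD1 (AT4G25100), an iron superoxide dismutase that plants use in place of the copper/zinc enzymes when copper is scarce, had 846 in wrky47 control and 423 in wild-type control, a difference of 1.00. The copper/zinc enzyme CSD2 was at -0.25 and its chaperone CCS at -0.17. ZIP2, a metal transporter of the root stele, had 1179 in wrky47 control and 625 in wild-type control, and the copper importer COPT2 was at least 1.71-fold higher in wrky47 as a bound. FSD1 was the only one of the 9 measured copper genes past 2-fold, and their median was 0.09. In the zinc list, with 10 measured and a median of -0.10, the vacuolar zinc and cadmium pump HMA3 was the highest at 0.63, and the xylem-loading pump HMA2 the lowest at -0.49.

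In the root hair wall list 1 of 13 measured genes passed 2-fold, and 11 had differences below 0. RHS13 (AT4G02270), a root hair wall protein, had 167 in wrky47 control and 455 in wild-type control, a difference of -1.45. Counting RHS13, 6 members were lower by 1.5-fold or more. Of all measured genes 60.1% were below 0 and 1.87% were lower by 1.5-fold or more. The list median was -0.52, beside -0.05 over all genes, and it was -0.31 over all members on the array without a filter and -0.15 over those above the 60th percentile. XTH14, a xyloglucan enzyme of root hairs, had 259.8 in wrky47 control and 502 in wild-type control (-0.95). The proline-rich protein PRP3 was at -0.81, the peroxidases PRX44 and PRX73 at -0.78 and -0.60, and the hair expansin EXPA7 at -0.76. EXT6 and the cellulose synthase-like CSLD3, at 0.29 and 0.01, were the only 2 above 0. A further 11 of the 25 members on the array were below the floor in both genotypes.

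In the list of hair growth machinery 1 of 9 measured genes passed 2-fold. The actin-depolymerizing factors ADF11 and ADF8, which sever actin filaments and are made in hair cells, were the lowest. ADF11 had 86.6 in wrky47 control and 199 in wild-type control (-1.20), and ADF8, with 79.0 and 180.0, was at least 2.28-fold lower in wrky47 as a bound. The actin-depolymerizing factors of wide expression lay closer to 0, with ADF5 at -0.29, ADF3 at -0.25, ADF2 at -0.22, ADF4 at -0.13 and ADF6 at 0.18. Of the measured genes 7 were below 0 and the median was -0.32. The receptor-like kinase MRH1 was at -0.49, SCN1, which confines the site of hair growth, at -0.45, RHS2 at -0.45, the oxidase RBOHC at -0.32 and the proton pump AHA7 at -0.21. Of the bHLH regulators of hair growth, LRL3 was at -0.84 and LRL1 at -0.33, and the others were not measured. TTG1 and SCM, which set epidermal cell fate before hairs form, were at 0.03 and -0.05.

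Summed over all members on the array, the root hair wall list had a signal of 5756 in wrky47 control and 7822 in wild-type control, and the growth list 4554 and 5456. In whole roots fewer cells of a type and less RNA per cell cannot be told apart, and this holds for every group of cell-type genes below. The hair marker COBL9 was at -0.31. Root cap genes, of which CEL5 alone was measured, had a summed signal of 255 in wrky47 control and 328 in wild-type control.

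In the Casparian strip list 2 of 9 measured genes passed 2-fold, both lower in wrky47, and 8 had differences below 0. CASP1 (AT2G36100) and CASP2 (AT3G11550), membrane proteins that mark the place of the strip, were these 2. CASP1 had 1288 in wrky47 control and 2649 in wild-type control (-1.04), and CASP2 had 190.2 and 396 (-1.06). CASP1 was short of 2-fold after quantile normalization (-0.962), centring (-0.984) and scaling (-0.980), and CASP2 after scaling (-0.997) and with the offset (-0.955). The peroxidase PER64, which makes the lignin of the strip, had 434 in wrky47 control and 778 in wild-type control (-0.84). The dirigent protein ESB1, needed for lignin to form at the right place, had 797 and 1415 (-0.83). In the list 4 members were lower by 1.5-fold or more, beside 1.87% of all measured genes, and the list median was -0.52. The factor MYB36, which switches on CASP genes, was at -0.22, and SGN1, a kinase of strip surveillance, at -0.26.

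SCR, a factor that specifies the endodermis, was the strip list's only member above 0, at 0.19. Suberin genes, which coat the endodermis at a later stage, were near 0. Their 15 measured members had a median of 0.02, and the extremes were ABCG2 at -0.19 and MYB92 at 0.18. The summed signal of the strip list was 4701 in wrky47 control and 7524 in wild-type control, and that of the suberin list 13403 and 13017.

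**Figure D2:**
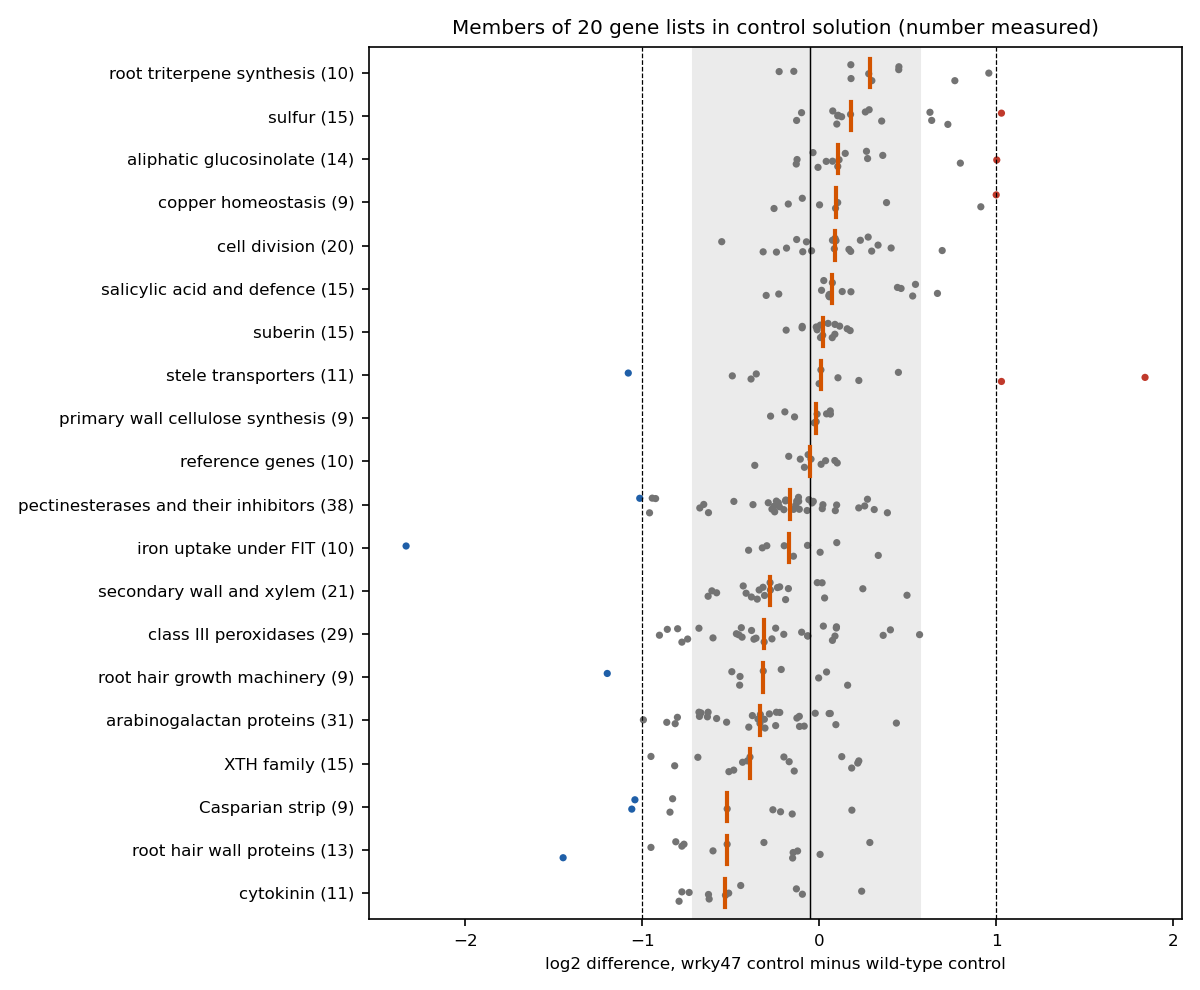
Log2 difference, wrky47 control minus wild-type control, of the measured members of 20 gene lists, with the number measured in brackets. Each point is a gene, orange bars are list medians, the grey band holds the middle 98% of all measured genes, the solid line is their median of -0.05, and dashed lines mark 2-fold, with blue and red points beyond it. Root hair wall, Casparian strip and cytokinin medians lie near -0.52, the triterpene median lies at 0.29, and the suberin members stay within the grey band.

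In the arabinogalactan, XTH, peroxidase and pectinesterase families of the wall 1 measured member in all passed 2-fold, a pectinesterase. Most differences in these families were below 0, as were 60.1% of those of all measured genes, of which 1.87% were lower by 1.5-fold or more. The XTH, peroxidase and extensin groups share members with the root hair wall list, XTH14, PRX44 and PRP3 among them, so their counts overlap. Arabinogalactan and fasciclin-like proteins, sugar-coated proteins of the wall and plasma membrane, were below 0 in 27 of 31 measured cases with a median of -0.33, and 9 were lower by 1.5-fold or more. AGP22 had 667 in wrky47 control and 1327 in wild-type control, which at -0.99 is just short of 2-fold. AGP20 was at -0.86, AGP13 at -0.81, AGP14 at -0.80, AGP4 at -0.68 and AGP26 at -0.68. Several of these are short peptides with a lipid anchor, and no member of the family passed 2-fold.

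In the XTH family 11 of 15 measured members were below 0 and the median was -0.39 (-0.16 over all 30 members on the array), again with none past 2-fold. After XTH14 came XTH18, with 418 in wrky47 control and 736 in wild-type control (-0.82), and XTH4, with 1618 and 2601 (-0.68). XTH8, XTH9 and XTH15 lay between -0.51 and -0.43. XTH18 is the closest relative of XTH17 in sequence, so that the probe sets for the pair may share RNA.

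Class III peroxidases, which cross-link wall polymers and lignin, were below 0 in 21 of 29 measured cases, with a median of -0.31 (-0.12 over all 42 on the array). AT1G44970 had 159 in wrky47 control and 298 in wild-type control, AT1G30870 had 284 and 515, and AT5G15180 had 714 and 1242. Their differences were -0.90, -0.86 and -0.80, and 7 members were lower by 1.5-fold or more.

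Pectinesterases and their inhibitors, which set the methylation of wall pectin, were a family listed after values had been seen. In it 29 of 38 measured members were below 0 with a median of -0.17, which was 0.01 over all 110 on the array. AT3G10720, titled pectinesterase 25, had 396 in wrky47 control and 800.4 in wild-type control (-1.01) and was the one past 2-fold. AT5G62340 (-0.96), AT5G04960 (-0.94) and UNE11 (-0.92) followed. Of 8 measured extensins and proline-rich proteins 7 were below 0, with ELP the lowest and EXT3 at -0.30. AT3G28550, an extensin-like gene outside that list, had 107 in wrky47 control and 215 in wild-type control (-1.002).

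Secondary walls of xylem vessels are built by their own cellulose synthases. Of 21 measured genes of these walls 17 were below 0, none past 2-fold, and the median was -0.28. FLA12 had 236 in wrky47 control and 364 in wild-type control (-0.63), the cellulose synthase CESA7 had 163 and 249 (-0.61), and FLA11 was at -0.58. The xylan synthase IRX10 was at -0.43 and the vessel protease XCP1 at -0.41, while FRA8, which makes the end of the xylan chain, was the highest at 0.50. The regulators of xylem fate had a median of 0.02 over 6 measured genes, and the cellulose synthesis genes of the primary wall one of -0.02 over 9. CWLP, a proline-rich linker of wall and plasma membrane, ran the other way, with 201 in wrky47 control and 95.8 in wild-type control (1.07).

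Of 11 measured cytokinin genes none passed 2-fold in either direction, while 10 had differences below 0. Cytokinin is a hormone that promotes the formation of vascular tissue in roots and slows their growth, and type-A response regulators (ARR) are among its first targets and dampen its signal. ARR7 had 382 in wrky47 control and 661 in wild-type control (-0.79), and ARR5 had 191 and 328 (-0.78). ARR8 was at -0.73, ARR6 at -0.62 and ARR9 at -0.62. IPT3, which makes cytokinin where nitrate is sensed, was at -0.53. In the list 5 members were lower by 1.5-fold or more, beside 1.87% of all measured genes, and the list median was -0.53. CKX5, an enzyme that breaks cytokinin down, was the only one above 0, at 0.24.

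Other hormone lists stayed near the median of all genes. Medians were -0.08 for auxin (25 measured), 0.02 for ethylene (13), 0.04 for jasmonate (17) and 0.00 for abscisic acid and dehydration (10). In the auxin list the repressors IAA14 (-0.57) and IAA3 (-0.53) were the lowest. TAT3, a tyrosine aminotransferase induced by jasmonate, was the one member of these lists past 2-fold, with 143 in wrky47 control and 316 in wild-type control (-1.14). Of 7 measured JAZ genes, repressors of the jasmonate pathway, 4 were above 0 and 3 below, with JAZ2 the highest at 0.41 and JAZ12 the lowest at -0.21.

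Among genes higher in wrky47, UMAMIT14 (AT2G39510), which exports amino acids from the phloem of the root, had the highest difference. Its signal was 572 in wrky47 control and 159.5 in wild-type control (1.84, or 3.59-fold). On the Al arrays it had 81.2 in wrky47 and 60.8 in wild type, the wild-type value being below the floor. The other 21 measured UMAMIT exporters had a median of 0.11, with 0 past 2-fold.

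Transporters of the stele went both ways. SKOR (AT3G02850), the channel that releases potassium into the xylem, had 146 in wrky47 control and 309 in wild-type control (-1.08). SULTR2;1 (AT5G10180), a sulfate transporter of vascular cells, had 191 in wrky47 control and 93.5 in wild-type control (1.03). HKT1, which withdraws sodium from the xylem, was at 0.45, and PHO1, which loads phosphate into the xylem, at -0.38. The list of 11 measured genes had a median of 0.01. Phloem genes, 7 measured, had a median of -0.08, with the sucrose loader SUC2 at 0.43 and the proton pump AHA3 at -0.62. CBL8, a calcium sensor, had 287 in wrky47 control and 137 in wild-type control (1.07), and the outward potassium channel GORK was at 0.43.

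Genes of sulfur supply were mostly above 0. Of 15 measured members 13 were above 0, 4 were higher by 1.5-fold or more, and the median was 0.18, beside -0.05 over all genes (0.11 with the filter at the 60th percentile). After SULTR2;1 came GGCT2;1, which recycles glutathione, with 215 in wrky47 control and 129.7 in wild-type control (0.73). The sulfur-deficiency-induced genes SDI1 and SDI2, which restrain glucosinolate synthesis, had 338 and 1373 in wrky47 control against 217 and 889 in wild-type control. SULTR4;2, which releases sulfate from the vacuole, was at 0.28 and SULTR2;2 at 0.35.

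Aliphatic glucosinolates are sulfur-rich defence compounds made from methionine. FMO GS-OX3 (AT1G62560), which oxidises the sulfur of their side chain, had 593 in wrky47 control and 295 in wild-type control (1.00). Its relatives FMO GS-OX1, FMO GS-OX4 and FMO GS-OX5 were at 0.80, 0.36 and 0.15. Of 14 measured genes 10 were above 0 with a median of 0.11, whereas the 12 of indole glucosinolates had a median of -0.00.

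Genes of root triterpenes, specialised metabolites that plants release to the soil, had the highest median of the lists shown. It was 0.29 over 10 measured genes, 8 of them above 0 and none past 2-fold. The median was 0.21 without the filter and 0.45 with it at the 60th percentile, and THAS1 passed 2-fold after quantile normalization (1.04), centring (1.02) and scaling (1.02). The genes of thalianol synthesis were led by the synthase THAS1, with 576 in wrky47 control and 296 in wild-type control (0.96), and the hydroxylase THAH, with 939.6 and 552 (0.77). THAD was at 0.45, the reductase THAR1 at 0.45 and the acyltransferase THAA1 at 0.30. BARS1, the synthase of baruol, another triterpene, ran the other way. It had 58.2 in wrky47 control, below the floor, and 189.8 in wild-type control, at least 2.401-fold lower.

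Genes of the list of salicylic acid and defence, which is not limited to salicylic acid, were above 0 in 13 of 15 measured cases. None was past 2-fold, and the median was 0.08. The basic pathogenesis-related proteins PR4 and PR3, of which PR3 is a chitinase, had 2769 and 5326 in wrky47 control against 1742 and 3651 in wild-type control. ICS1, which makes the precursor of salicylic acid, was at 0.53, ALD1 of pipecolic acid synthesis at 0.46, the regulator CBP60G at 0.44 and WRKY38 at -0.30. AT4G16260, a glucanase of defence against nematodes outside this list, had 3058 in wrky47 control and 1218 in wild-type control (1.33). In the WRKY family 46 members were measured and 24 were above 0, and none passed 2-fold. WRKY28 (-0.72) and WRKY17 (-0.64) were the lowest, and WRKY57 (0.53) the highest.

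**Figure D3:**
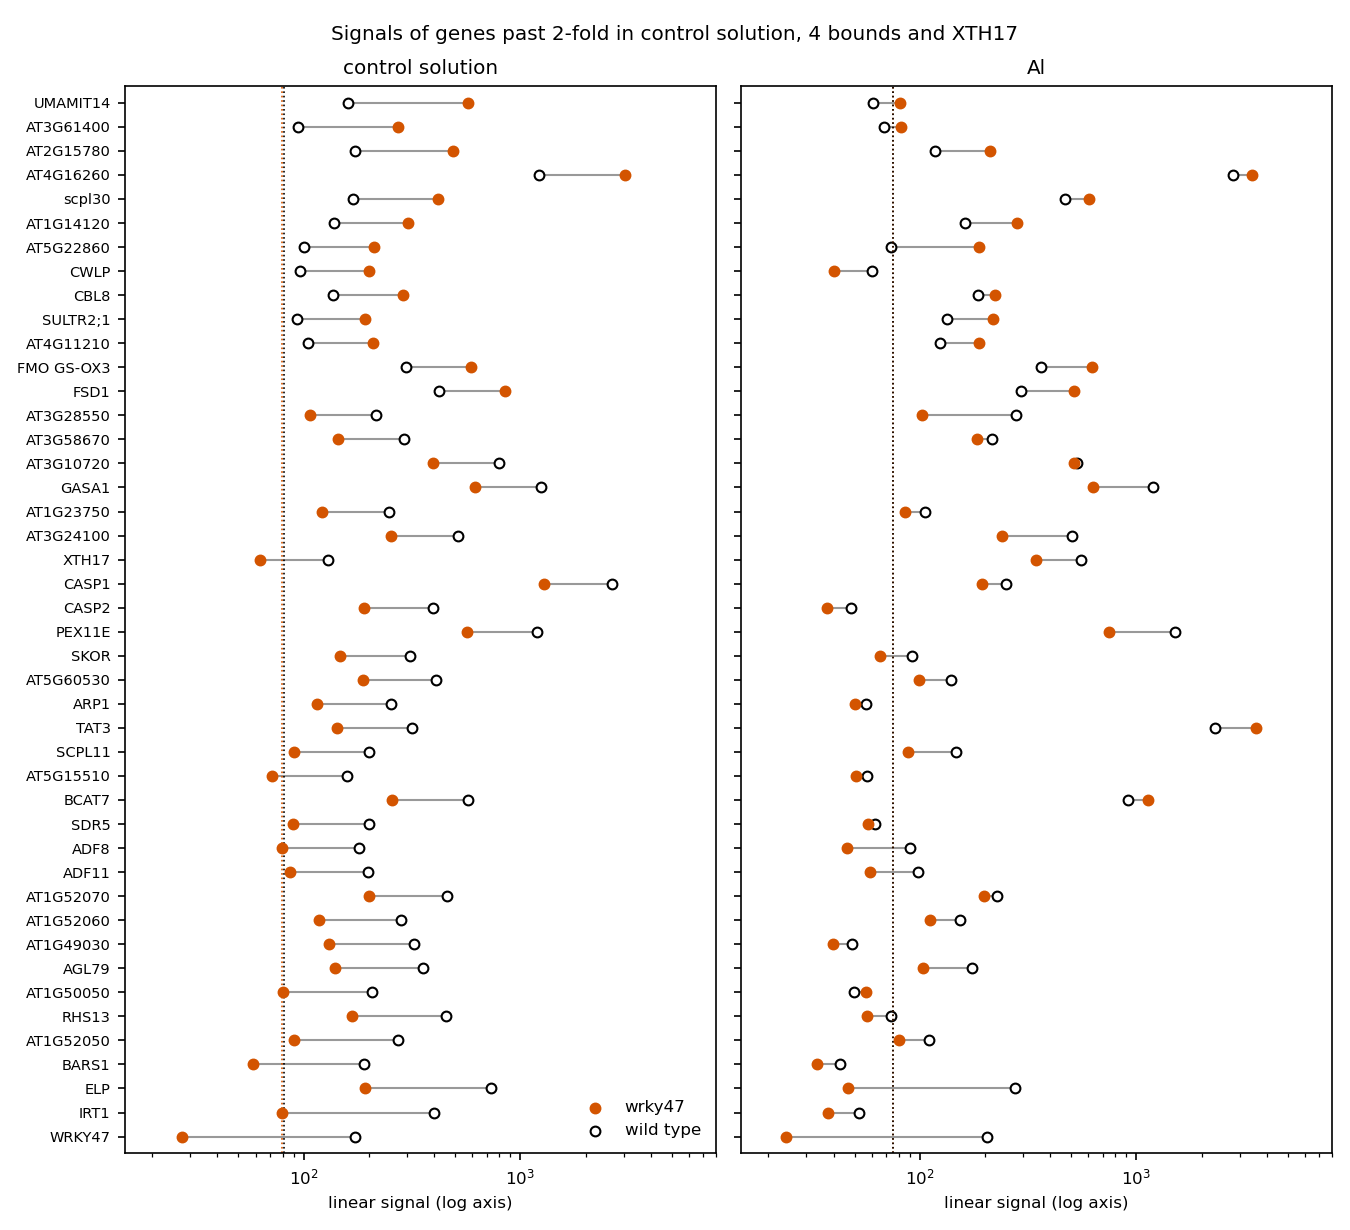
Linear signal on a log axis of each gene past 2-fold in control solution, the 4 genes lower by 2-fold or more as bounds, and XTH17, ordered from higher to lower in wrky47. Orange points are wrky47 and open points wild type, on the control arrays (left) and on the Al arrays (right), and dotted lines mark the detection floors. WRKY47, BARS1, AT5G15510, ADF8 and XTH17 lie below the floor in wrky47 control, and IRT1 and AT1G50050 lie just above it.

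Jacalin-like lectins, which bind sugars, gave the only run of neighbouring genes past 2-fold. AT1G52050, AT1G52060 and AT1G52070 follow each other on chromosome 1 with no protein-coding gene between them. AT1G52050 had 90.6 in wrky47 control and 273 in wild-type control (-1.59), AT1G52060 had 118 and 282 (-1.26), and AT1G52070 had 200.0 and 459 (-1.20). Copies this close in sequence may share RNA between probe sets, although none of these carries the suffix of a shared probe set. The other lectins of the family were apart from these, with JAL22 at 0.57 and JAL33 at 0.10.

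The remaining genes past 2-fold belong to no list above. Lower in wrky47 were AT1G50050, a pathogenesis-related protein by title (80.0 in wrky47 control and 206 in wild-type control, -1.36), and the MADS-box factor AGL79 (139 and 356, -1.36). AT1G49030, a PLAC8 family protein, had 131 in wrky47 control and 323 in wild-type control (-1.30). The amino acid enzyme BCAT7, a branched-chain aminotransferase, had 256 and 573 (-1.16) and lies 2 protein-coding genes from AT1G50050. PEX11E, which divides peroxisomes, had 567 in wrky47 control and 1196 in wild-type control (-1.08). GASA1, a small cysteine-rich protein regulated by gibberellin, had 616 and 1249 (-1.02). The dehydrogenase SDR5, the carboxypeptidase-like SCPL11, the RNA-binding ARP1 and AT5G60530 lay between -1.17 and -1.11. AT1G23750, AT3G24100 and AT3G58670 lay between -1.02 and -1.004 and, like AT3G10720, GASA1 and AT3G28550, were short of 2-fold after each of the 3 other scalings. As a bound, AT5G15510, of the TPX2 family of spindle proteins, was at least 2.01-fold lower.

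Higher in wrky47 were AT3G61400, an oxygenase titled 1-aminocyclopropane-1-carboxylate oxidase-like (273 in wrky47 control and 93.9 in wild-type control, 1.54), and AT2G15780, a cupredoxin (488 and 172, 1.502). The carboxypeptidase-like scpl30 had 415 in wrky47 control and 169.6 in wild-type control (1.29). AT1G14120, a dioxygenase, AT5G22860, a carboxypeptidase, and AT4G11210, a dirigent domain protein, were at 1.14, 1.08 and 1.01. Just short of 2-fold were AT5G19110 (0.99), AT5G52390 (0.98) and CEP1 (0.98) on the higher side, and AT3G05900 (-0.997), AGP22 (-0.99) and TCP-1 (-0.99) on the lower side. The 3 on the higher side passed 2-fold after quantile normalization, centring and scaling.

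In the lists that mark other tissues, time and handling no measured gene passed 2-fold. Green tissue markers were mostly below the floor, with 3 of 12 on the array measured and 7 below the floor in both genotypes, and their summed signal was 765 in wrky47 control and 986 in wild-type control. LHCA4 (-0.83) and LHCB4.1 (-0.78) were lower in wrky47 by more than 1.5-fold, and RCA was at -0.05. The median of these 3 was -0.78, the lowest of all lists, and it was -0.13 over all members on the array without a filter. The part of green tissue in the differences above was not tested. Clock genes had a median of -0.12 over 8 measured, with ELF4 lowest at -0.78. Rapid stress and touch genes had a median of -0.02 over 17, cell division genes one of 0.09 over 20, and reference genes one of -0.05 over 10. The 14 measured genes of aluminium tolerance had a median of -0.02, with STAR1 at 0.52 and PGIP1 at -0.42.

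The genotypes were also compared on the Al arrays, which share no array with the control comparison and differ from it in solution. There 43 of 12602 measured genes passed 2-fold (0.341%), 29 of them higher (0.23%) and 14 lower (0.111%) in wrky47. Of the 13 genes higher in wrky47 control 9 were measured in Al, and 9 of the 9 were again higher in wrky47, 6 of them by 1.5-fold and 0 by 2-fold. Of the 26 lower genes 16 were measured in Al, and 14 were again lower, 6 by 1.5-fold and 2 by 2-fold. Among all 12223 genes measured on the 4 arrays 50.4% were higher in wrky47 in Al and 49.5% lower, and 27 and 12 passed 2-fold. Across these genes the 2 differences correlated with Pearson's r of 0.43 and Spearman's rho of 0.37, a description across genes, which are not independent replicates.

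Past 2-fold in both solutions, among genes measured on all 4 arrays, were AT3G28550, with 102 in wrky47 Al and 279 in wild-type Al (-1.45), and AT3G24100, with 239 and 506 (-1.08), and both were short of 2-fold in control solution under the 3 other scalings and with the offset. ELP, past 2-fold in control solution, was at least 3.67-fold lower in wrky47 in Al as a bound. PEX11E had 751 in wrky47 Al and 1502 in wild-type Al, a 2-fold difference to within rounding, and GASA1 had 632 and 1195. Of the higher genes measured on both Al arrays, AT2G15780 (0.85), FSD1 (0.81), AT1G14120 (0.79) and FMO GS-OX3 (0.79) kept the largest differences in Al. AT5G22860 had 189 in wrky47 Al and 73.7 in wild-type Al, at least 2.52-fold higher because the wild-type signal was below the floor.

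TAT3 and BCAT7 had the opposite sign in Al, a reversal that was not tested. TAT3 had 3556 in wrky47 Al and 2298 in wild-type Al (0.63), and BCAT7 had 1137 and 917 (0.31). ZIP2, short of 2-fold in control, had 225 in wrky47 Al and 406 in wild-type Al (-0.85). CASP1 had 193 in wrky47 Al and 249.5 in wild-type Al (-0.37), and CASP2 was below the floor on both Al arrays, so that its direction there is not given.

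**Figure D4:**
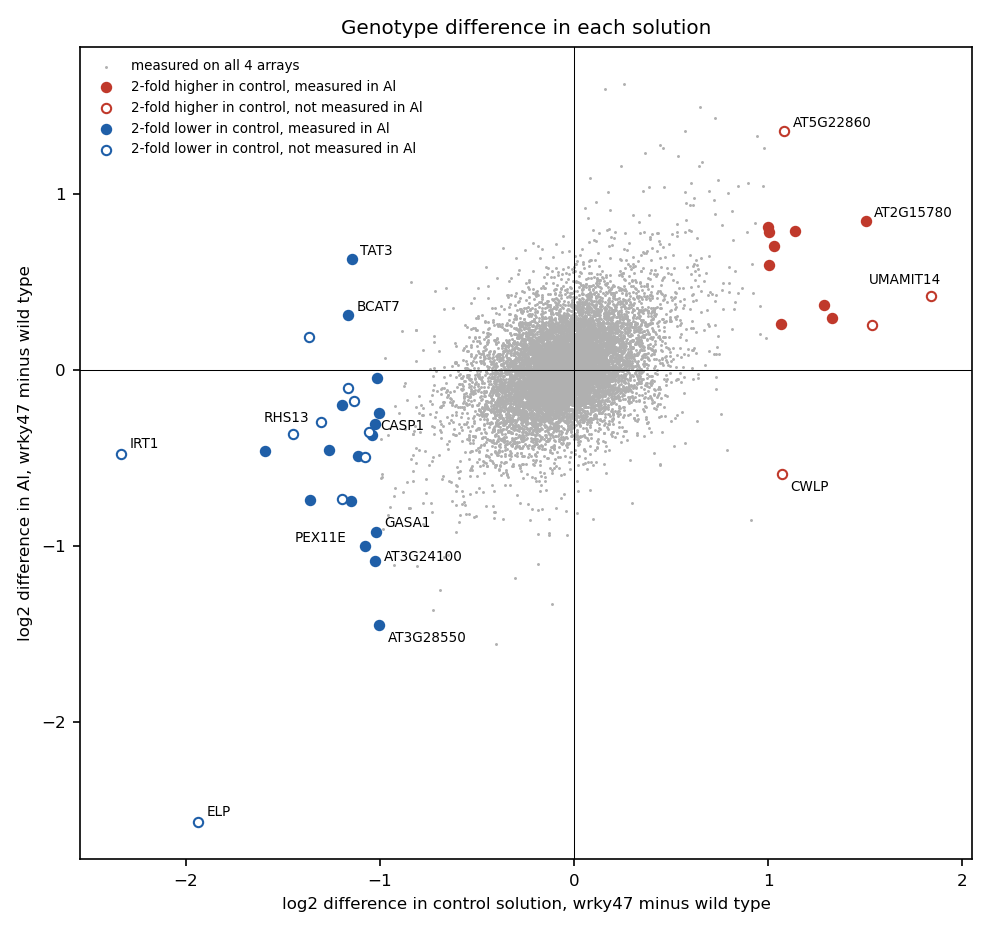
Log2 difference, wrky47 minus wild type, on the control arrays (horizontal axis) against that on the Al arrays (vertical axis) for the 12223 genes measured on all 4 arrays (grey). Coloured points are the genes past 2-fold in control solution, filled where the gene was measured in Al and open where at least 1 Al signal was below the floor. Most coloured points lie on the side of 0 they have in control solution, with TAT3 and BCAT7 above 0 in Al, and ELP, an open point, is the lowest in Al.

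The lists kept their medians to different degrees, taken over members measured on all 4 arrays. Secondary wall genes had -0.28 in control solution and -0.42 in Al (21 genes, 20 below 0 in Al), and arabinogalactan proteins -0.33 and -0.26 (31 genes, 29 below 0 in Al). Casparian strip genes had -0.26 and -0.37 (7 genes) and class III peroxidases -0.27 and -0.21 (27 genes). Sulfur genes had 0.15 and 0.38 (14 genes) and salicylic acid and defence genes 0.08 and 0.29 (15 genes, 15 above 0 in Al). Cytokinin genes had -0.48 and -0.15 (8 genes), XTH genes -0.39 and -0.16 (15 genes) and triterpene genes 0.30 and -0.16 (9 genes). The expansins had -0.09 and 0.21 (12 genes). Root hair wall genes had -0.15 and -0.34 (9 genes) and hair growth genes -0.26 and -0.07 (8 genes). The 2 medians had opposite signs in 19 of 60 lists, which include, besides the triterpene genes and the expansins, iron uptake under FIT (-0.17 and 0.04), copper (0.09 and -0.06), suberin (0.02 and -0.13) and auxin (-0.07 and 0.07). The sign of a median this close to 0 depends on the scaling. Over all measured members, 9 of the 60 medians in control solution changed sign after quantile normalization, 10 after centring and 11 after 75th-percentile scaling.

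**Figure D5:**
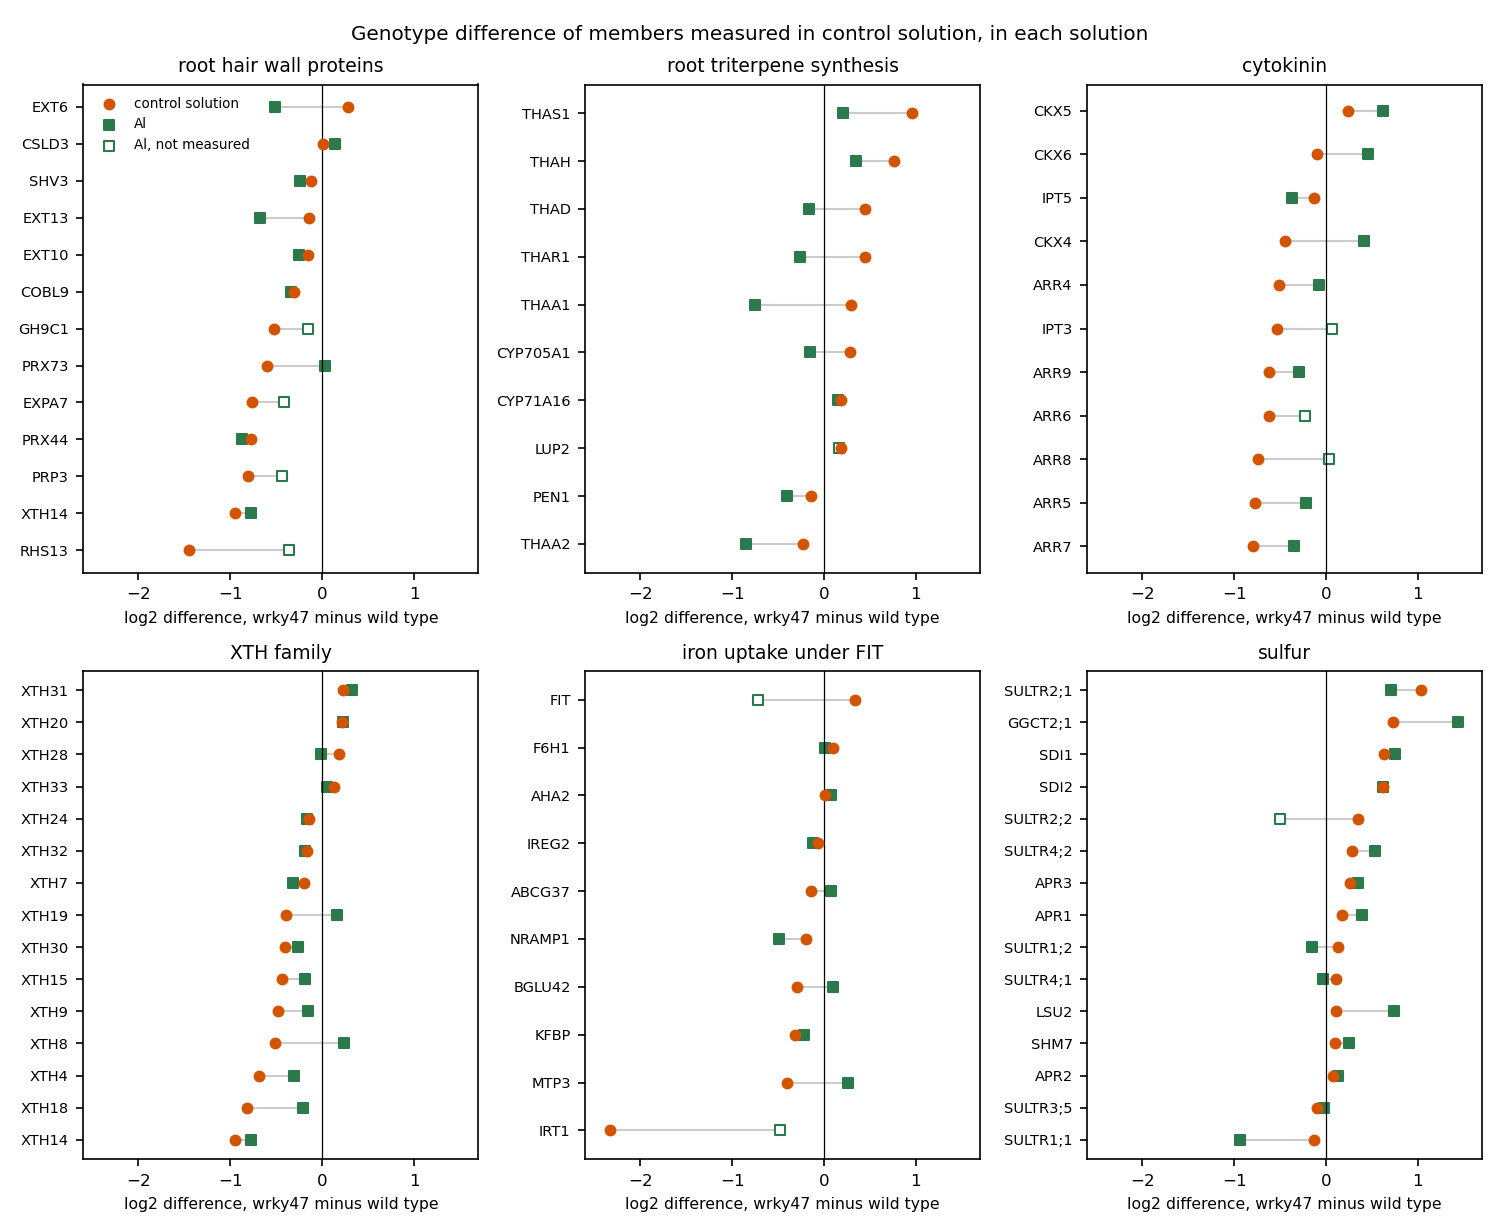
Log2 difference, wrky47 minus wild type, of members measured in control solution for 6 lists, in control solution (orange circles) and in Al (green squares, open where at least 1 Al signal was below the floor). Cytokinin members lie below 0 in control solution except CKX5 and nearer to 0 in Al for most, while SDI1, SDI2 and GGCT2;1 of the sulfur list lie above 0.5 in both.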

How the data were processed

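Total RNA from roots was hybridised to 4 arrays, 1 for each of the 4 combinations of plant line and treatment that the labels name. The authors deposited a log2 signal per probe set and array. Columns headed raw hold intensity values, as deposited, that equal 2 to the power of these log2 values (largest gap 1.55e-06), and a second table is identical to them (0 values differ). The submitters' processing notes name MAS5 and the labels name Cy3; settings and the scaling between arrays are not stated, and a leftover scaling difference would shift every gene alike.

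Of 22810 probe sets 64 are controls. A gene with several probe sets (205 genes) took the one with the highest mean over the 4 arrays. Symbols came from the deposited table's codes matched to RefSeq (TAIR10.1), where 20277 of 20341 codes matched. The floor was the 40th percentile of the 22746 non-control probe sets of each array. A bound sets the brighter signal against the higher of the other array's floor and the dim signal. A difference of 1 on the log2 scale (2-fold) was the only rule for a call, because 1 array a group allows no test, and the number of arrays limits the precision.

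Members and lists (42 written by gene code, 18 by symbol or title, 3 of these after values were seen) were chosen with earlier results of these data known, and the XTH and root hair lists are no independent evidence. Named genes are WRKY47, XTH17, ELP, all genes past 2-fold, up to 4 bounds a direction, up to 6 measured members of largest difference per list and the 3 nearest the threshold on each side. EXT6, CSLD3, CKX5, COPT2 and the cell-type markers MYB36, SCR and COBL9 are named besides, the first 4 after their values were seen. Promoter motifs are not analysed here, and a list member is not reported here. Counting was tested on simulated data. Python 3.11.15, pandas 2.3.3 and numpy 2.4.6 were used, with 10 alternatives to the settings.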

Additional observations from a re-analysis of the deposited data

Results flagged for a closer look

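For 3 named genes the genotype difference was large in at least 1 solution and had opposite signs in control solution and Al, and these reversals were not tested, since each side is 1 array. TAT3 was lower in wrky47 in control solution (log2 difference -1.14) and higher in Al (0.63). BCAT7 was lower in control solution (-1.16) and higher in Al (0.31). ZIP2 was higher in control solution (0.91) and lower in Al (-0.85).

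Probe sets that name several genes or no gene are outside the comparison of genes, and 691 of them were measured on both control arrays. Past 2-fold lay 5 of them, each naming several genes and all lower in wrky47 (0 were higher). Which of the genes named gave the signal cannot be told. The probe set for AT1G47600 and AT1G51470, titled BGLU34, a beta-glucosidase, had 384 in wrky47 control and 1283 in wild-type control (-1.74), and -0.36 on the Al arrays. That for AT1G06090 and AT1G06120, desaturase-like proteins, had 198 in wrky47 control and 610.2 in wild-type control (-1.63). That for AT4G12510 and AT4G12520, lipid-transfer-like proteins, had 207 in wrky47 control and 607 in wild-type control (-1.55), and it was the only one of these past 2-fold in Al as well (-1.63). That for AT3G12230 and AT3G12240, titled serine carboxypeptidase-like scpl14, was at -1.28 in control solution and 0.19 in Al, and that for AT1G21520 and AT1G21525, hypothetical proteins, at -1.06 and -0.41.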

How the results depend on the processing

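Every value rests on 1 array a group, so repeatability between plants is unknown. As deposited 13 genes were higher and 26 lower in wrky47, 23 of 25 kept their direction in Al and 4 were bounds. With the second table, the mean of probe sets, quantile normalization, median centring or 75th-percentile scaling, these counts stayed within 1.5 times, at 13 to 19 higher and 18 to 26 lower. They moved to 19 higher, 41 lower and 51 of 60 without a detection filter, and to 3 higher, 6 lower and 7 of 8 with the filter at the 60th percentile. With an offset of the 20th percentile added before log2 they moved to 6 higher, 14 lower, 11 of 13 and 1 bound. At 1.5-fold they were 116 higher, 236 lower, 265 in the same direction in Al and 32 bounds, and at 3-fold 1 higher, 3 lower, 1 in the same direction and 0 bounds. The changed thresholds and filters alter which genes can be counted. The offset is added to both signals of a gene, which by arithmetic draws a large difference toward 0, most at low signal. Of 60 list medians those that changed by more than the SD across genes (0.24) were root hair regulators, with 2 measured genes (-0.59 as deposited, -0.28 without a filter, -0.33 with the stricter filter), jacalin-like lectins (-0.19, then 0.06 and 0.07), green tissue, with 3 measured genes (-0.78, -0.13 without a filter) and root hair wall proteins (-0.52, -0.15 with the stricter filter). Quantile normalization, centring and scaling shifted list medians by 0.08 at most, so none could change by that SD there. Under these settings 9, 10 and 11 list medians changed sign. Of 353 named gene differences 0 past 2-fold changed sign, but the largest shift was 0.34, too small to reverse a difference of 1. Below 2-fold dropped 7 after quantile normalization, 7 after centring, 8 after scaling and 19 with the offset. No paired analysis was possible because each group has 1 array.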

Other observations

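Some other measured lists held single members of large difference in control solution. In the tau and phi glutathione S-transferases, which detoxify reactive compounds, GSTU6 had 222 in wrky47 control and 117 in wild-type control (0.92), GSTU4 had 152 and 87.4 (0.80) and GSTU25 had 435 and 264 (0.72), while the median of 27 members was 0.00. NYC1, which starts the breakdown of chlorophyll b, had 518 in wrky47 control and 278 in wild-type control (0.90), and 898 in wrky47 Al and 429 in wild-type Al. The tonoplast aquaporin TIP4;1 had 246 in wrky47 control and 470.0 in wild-type control (-0.94).

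Of the 39 genes past 2-fold 13 of 3250 measured lie on chromosome 1, 6 of 1933 on chromosome 2, 11 of 2503 on chromosome 3, 6 of 1873 on chromosome 4 and 3 of 3010 on chromosome 5.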
